A study of Rattus norvegicus with 9 samples.

Results

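The genes followed here belong to the Wnt pathway: the ligands Wnt11 and Wnt10b, the receptor Fzd1, the transcription factor Lef1 and the feedback inhibitor Nkd1. They are 5 of the 32662 genes in the count table, and all 5 had enough counts to be among the 12719 genes tested. The members were chosen by name from the authors' tables of VPA against control, which list only genes past a limit on the adjusted p on these same libraries, and each name was matched to the counts by its Ensembl identifier. Values for VPA against control are therefore given as a description, and calls and adjusted p in this contrast do not test the members. RN46A cells derive from the embryonic rat raphe, where serotonin neurons form, and were made to divide without limit; all 9 libraries come from this 1 line. All groups were grown at 33 °C with 5% serum and differentiated for 72 h at 39 °C in 1% serum. For a further 72 h, the cells of 3 libraries received 0.5 mM lithium, those of 3 received 0.5 mM valproate (VPA), and those of 3 served as controls, for which no vehicle is named. Both drugs are mood stabilisers: lithium blocks glycogen synthase kinase 3, among other enzymes, and VPA blocks histone deacetylases. The comparisons ask which transcripts differ after each drug.

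Wnt proteins are secreted lipid-modified ligands that bind Frizzled receptors. In the canonical branch, receptor binding stops a complex of Axin, APC and glycogen synthase kinase 3 from marking β-catenin for destruction, and β-catenin then enters the nucleus and activates genes together with factors of the TCF/LEF family. In other branches, Frizzled receptors act without β-catenin on cell polarity and movement. In the developing hindbrain and midbrain, Wnt signals take part in patterning, in the growth of progenitors and in axon guidance.

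Libraries held 9580591 to 13030300 counts, so that 1 count was worth 0.0767 to 0.104 CPM (counts scaled to library size). Between libraries of the same group, chi-square values of 27.0 to 68.3 per degree of freedom were above the value of about 1 that sampling of reads gives. No label says that they are separate cultures, so the spread on which the p-values rest may be technical. The defining serotonergic markers Tph2, Slc6a4 and Fev carry no name in the tables and were not analysed here. Only 2 of 18 serotonergic list genes, Maob and Htr5b, could be read, through tables the authors limited by p, mostly of VPA against control. Their summed level was 1.085 to 1.633 CPM in control, 0.7705 to 1.206 CPM with lithium and 6.962 to 9.751 CPM with VPA. In bulk RNA, fewer cells of a type and less RNA per cell cannot be told apart.

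With VPA, Wnt11, Lef1 and Nkd1 were higher and Wnt10b and Fzd1 were lower than in control, with log2 differences of 1.54 to 2.32 and of -1.28 and -1.26. With lithium, none of the 5 passed the test against control.

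Wnt11, a ligand best known for signalling without β-catenin in cell movement and tissue shaping, had the largest difference of the 5. Its level was 0.635, 1.41 and 1.24 CPM in controls 1, 2 and 3, and 1.29, 0.789 and 0.925 CPM in the lithium libraries. It was 4.60, 6.64 and 5.22 CPM in VPA 1, 2 and 3. Every VPA library stood above every other library, while control and lithium libraries overlapped. The control libraries hold only 7, 13 and 14 reads of Wnt11, against 59, 62 and 65 with VPA. The log2 difference of VPA from control was 2.32 ± 0.35 (SE), a fold of 4.99 with a 95% interval of 2.94 to 8.47. For lithium against control the log2 difference was -0.12 ± 0.39, with a 95% interval of -0.97 to 0.74 and an adjusted p of 1.0 (Benjamini-Hochberg) by the quasi-likelihood test of edgeR. Without control 2 that lithium value was 0.067, and without lithium 2 it was 0.020, so its sign is not settled.

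Wnt10b, a ligand of the canonical branch known for holding mesenchymal cells back from fat cell fate, was lower with VPA. It stood at 3.36, 3.04 and 4.27 CPM in controls 1, 2 and 3 and at 3.27, 2.54 and 4.01 CPM in lithium 1, 2 and 3. With VPA it stood at 0.936, 1.82 and 1.69 CPM. All 3 VPA libraries lay below every control and lithium library. The log2 difference of VPA from control was -1.28 ± 0.33 (SE), a fold of 0.413. The lithium difference was -0.12 ± 0.31, with a 95% interval of -0.80 to 0.56 and an adjusted p of 1.0 in the same edgeR test. That lithium value was 0.034 without control 3 and 0.032 without lithium 2. The 2 ligands thus lay in opposite directions from control with VPA, and neither passed the test with lithium.

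Fzd1, a Frizzled receptor able to signal through β-catenin, was the most heavily read of the 5, with 47 to 222 reads per library. Its level was 20.1, 10.2 and 9.33 CPM in controls 1, 2 and 3, and 10.3, 9.65 and 7.47 CPM in lithium 1, 2 and 3. With VPA it was 5.69, 5.03 and 5.86 CPM. Control 1 stood at about the sum of the other two controls, and all VPA libraries lay below all others. VPA differed from control by -1.26 ± 0.30 (SE) on the log2 scale, a fold of 0.419. Without control 1 it was -0.82, the smallest value over all libraries left out in turn. The lithium difference was -0.53 ± 0.29, with a 95% interval of -1.17 to 0.10 and an adjusted p of 1.0 (edgeR); without control 1 it was -0.095. The 3 VPA libraries lay close together, with an SD of 0.438 CPM against 6.01 CPM in control.

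**Figure D1:**
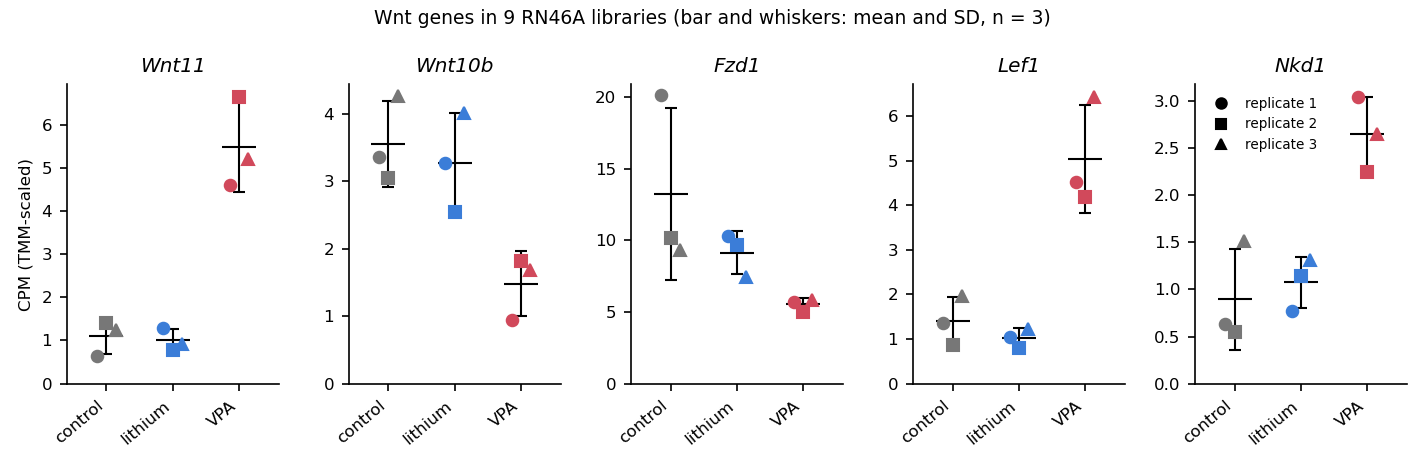
TMM-scaled CPM (linear axes from 0, 1 panel per gene) of Wnt11, Wnt10b, Fzd1, Lef1 and Nkd1 in control, lithium and VPA libraries; symbols mark the replicate number, bars the mean and whiskers the SD of 3 libraries. In each panel the 3 VPA libraries sit apart from the 6 others, and control 1 of Fzd1 stands alone at 20.1 CPM.

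Lef1, a TCF/LEF factor that carries β-catenin to DNA and is itself raised by canonical Wnt signals in many tissues, was at 1.36, 0.868 and 1.96 CPM in controls 1, 2 and 3. In lithium 1, 2 and 3 it was at 1.03, 0.789 and 1.23 CPM, and with VPA at 4.52, 4.18 and 6.43 CPM. Its reads numbered 8 to 22 per control library and 39 to 80 per VPA library. The VPA libraries again lay above all others, with a log2 difference from control of 1.83 ± 0.35 (SE), a fold of 3.56. The lithium difference was -0.46 ± 0.39, with a 95% interval of -1.30 to 0.38 and an adjusted p of 1.0 in edgeR's test.

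Nkd1 binds Dishevelled, damps Wnt signals and is itself switched on by canonical signalling, so it is used as a feedback target. It was the least read of the 5, with 5 to 17 reads per control library, 9 to 17 per lithium library and 21 to 39 with VPA. Its level was 0.635, 0.543 and 1.51 CPM in controls 1, 2 and 3 and 0.775, 1.14 and 1.31 CPM in the lithium libraries. With VPA it was 3.04, 2.25 and 2.65 CPM, above all 6 other libraries. Control 3 was the highest control, above the sum of the other two. The log2 difference of VPA from control was 1.54 ± 0.41 (SE), and 2.16 without control 3. The lithium difference was 0.24 ± 0.44, with a 95% interval of -0.72 to 1.20 and an adjusted p of 1.0 (edgeR); without control 2 it was -0.017 and without control 3 it was 0.85.

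The region before the start site is printed for Lef1 and Nkd1, the 2 members that are also known Wnt targets and were higher together with VPA. Both are the 250 bases before the start that the RefSeq table uses, on the strand of the gene, in build GRCr8. Lef1 lies on the plus strand at chr2:222340463-222340712 and Nkd1 on the minus strand at chr19:34722847-34723096. Capitals mark matches, on either strand, to CTTTGAT and CTTTGAA, core letters bound by TCF/LEF factors, and to GGGCGG, the core letters bound by Sp1 (CCGCCC on the other strand).
Lef1: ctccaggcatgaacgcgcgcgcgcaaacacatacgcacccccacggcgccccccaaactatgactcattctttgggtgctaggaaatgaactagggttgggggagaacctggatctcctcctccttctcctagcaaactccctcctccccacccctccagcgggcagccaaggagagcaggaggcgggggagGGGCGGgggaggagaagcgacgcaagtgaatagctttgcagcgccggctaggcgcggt
Nkd1: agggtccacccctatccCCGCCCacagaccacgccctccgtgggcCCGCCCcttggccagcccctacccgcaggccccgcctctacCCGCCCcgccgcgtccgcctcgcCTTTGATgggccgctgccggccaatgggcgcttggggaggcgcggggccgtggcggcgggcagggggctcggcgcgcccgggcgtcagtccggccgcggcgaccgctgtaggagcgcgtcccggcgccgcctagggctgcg
Counting the base just before the start as -1, Nkd1 holds CTTTGAT once, from base -141, and GGGCGG on the other strand from bases -233, -205 and -164. Lef1 holds GGGCGG once, from base -58. In the full windows of 300 bases (250 before and 50 after the start), CTTTGAT or its reverse complement was found in 3.63% of 33469 RefSeq promoters, CTTTGAA in 5.4% and GGGCGG in 33.1%. No motif overlapped another in these windows. Entries were held for 4 of the 5 genes, without Wnt10b, and the windows of Wnt11 and Fzd1 hold none of the 3 motifs in these letters. A match describes the sequence and does not show that a factor binds there. GC content was 80.0% before Nkd1 and 63.2% before Lef1, against a median of 51.2% over all promoters. It was 63.6% before Fzd1, which was lower with VPA, and 60.0% before Wnt11.

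Across the genes tested, a call was an adjusted p under 0.05 by the quasi-likelihood test of edgeR, with the Benjamini-Hochberg method. With lithium 0 of 5 members were called, against 0% of all 12719 genes in either direction. At an unadjusted p under 0.05 the same edgeR test gave 116 of the 12719 genes for lithium, and DESeq2 also called 0. These 116 are a smaller share than the 0.05 that evenly spread p-values would give. The lithium p-values thus lean high, and 0 calls do not show that lithium left these genes unchanged. Lithium and control libraries overlapped for all 5 members, where 3.28% of all tested genes had groups that did not overlap. An exact two-sided permutation test of each member's CPM gave p from 0.4 to 0.9 over the 5, with 0.1 the smallest p that 3 against 3 allows. The authors' deposited lithium table, which lists 137 genes up to an unadjusted p of 0.0499, holds 0 of the 5. The controls are the same 3 libraries that entered the choice of the members, so the lithium values are not independent of it.

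**Figure D2:**
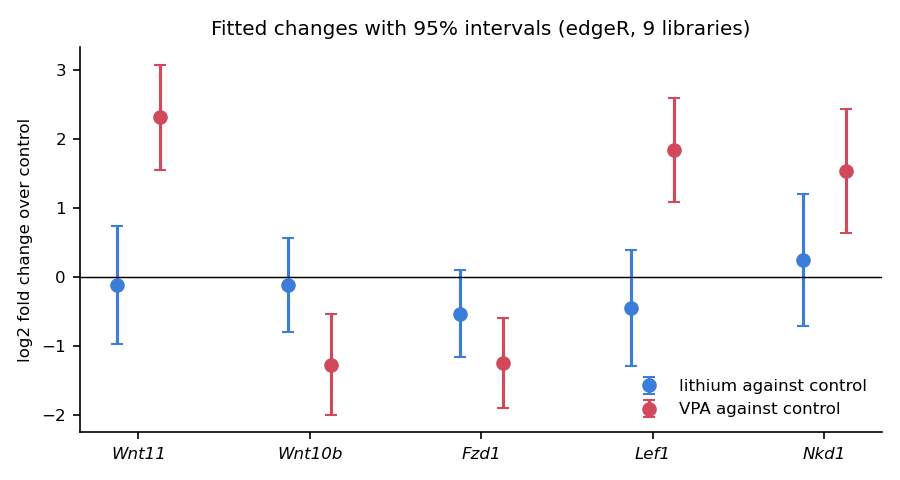
Fitted log2 fold change over control (y axis) of the 5 genes with lithium and with VPA, from edgeR over all 9 libraries; whiskers are 95% intervals. The lithium intervals all include 0, from the widest, for Nkd1 (-0.72 to 1.20), to the narrowest, for Fzd1 (-1.17 to 0.10), while VPA points lie between -1.28 and 2.32.

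For VPA against control, 3 members were called higher, against 5.71% of all tested genes, and 2 called lower, against 2.99%; calls in either direction made up 8.7%. All 5 had groups that did not overlap, against 25.5% of tested genes. Nothing is read from these counts, nor from calls kept or lost below, since the authors' adjusted p in this contrast chose the members. With the replicate number as a block the calls over all genes went from 1106 to 1741, and to 2408 with VPA and control alone, and all 5 members stayed called. Wnt11 and Lef1 were called whichever library was left out. Wnt10b lost its call without any 1 of controls 1, 2 or 3, lithium 1, or VPA 1, 2 or 3, with log2 values of -1.44 to -1.02 and adjusted p of 0.050009 to 0.147 in edgeR's test. Fzd1 lost its call without control 1 or VPA 1, 2 or 3 (-1.30 to -0.82; adjusted p of 0.0659 to 0.0798, edgeR). Nkd1 lost its call without control 1 or 2, lithium 2, or VPA 1, 2 or 3 (1.29 to 1.63; adjusted p of 0.0577 to 0.133, edgeR).

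**Figure D3:**
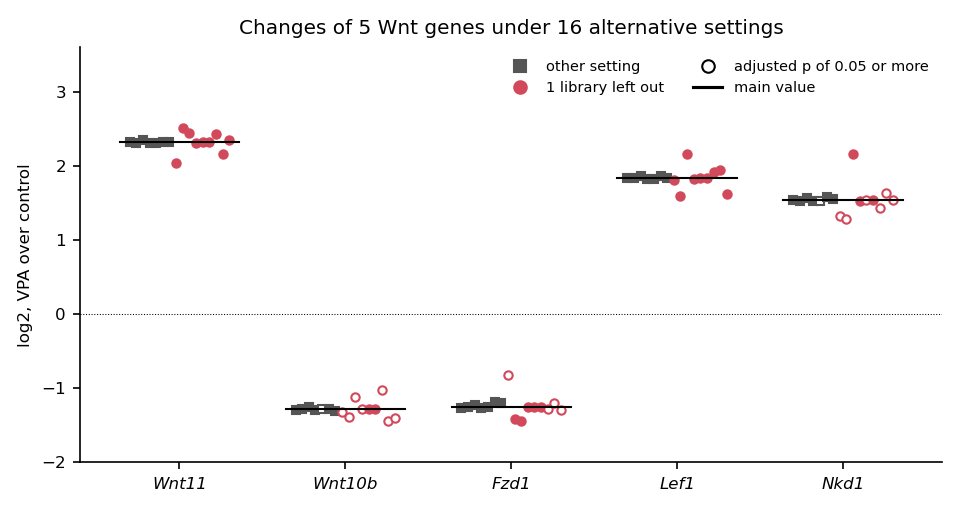
Log2 difference of VPA from control (y axis) for the 5 genes under 16 alternative settings, with squares for 7 other settings, circles for 9 fits with 1 library left out, open symbols for an adjusted p of 0.05 or more and lines for the main value. Wnt11 and Lef1 hold no open symbol, and Fzd1 without control 1 (-0.82) and Nkd1 without control 3 (2.16) lie farthest from their lines.

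Set directly against lithium, VPA libraries lay apart from lithium libraries for all 5 genes, where 29.2% of tested genes did. The log2 difference of VPA from lithium was 2.44 ± 0.35 (SE) for Wnt11, 2.29 ± 0.35 for Lef1 and 1.29 ± 0.39 for Nkd1. It was -1.16 ± 0.33 for Wnt10b and -0.72 ± 0.30 for Fzd1. Of the 5, Wnt11 and Lef1 were called higher (5.61% of tested genes were) and 0 were called lower (2.32%; 7.93% in either direction). These VPA libraries also entered the choice of the members, so the differences are a description.

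The authors' deposited tables give the values that chose the members. Their DESeq2 table, which holds 1212 genes up to an adjusted p of 0.05, gives log2 fold changes rounded to 1 decimal, for which it is not stated whether they were shrunken toward 0: 1.7 for Wnt11, 1.4 for Lef1, 1.1 for Nkd1, -1.0 for Fzd1 and -1.0 for Wnt10b. The adjusted p in the authors' deposited DESeq2 table runs from 7.5e-06 for Wnt11, through 0.00093 for Lef1, 0.0046 for Fzd1 and 0.029 for Nkd1, to 0.035 for Wnt10b, the member nearest to the limit. Genes just outside that limit are not analysed here. In the authors' deposited Salmon and sleuth table, 1 transcript per member is listed, with effects that correspond on the log2 scale to 2.47 for Wnt11, 1.87 for Lef1, 1.86 for Nkd1, -1.12 for Fzd1 and -1.33 for Wnt10b. All of these sources start from the same libraries, so their shared directions are not separate evidence.

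**Figure D4:**
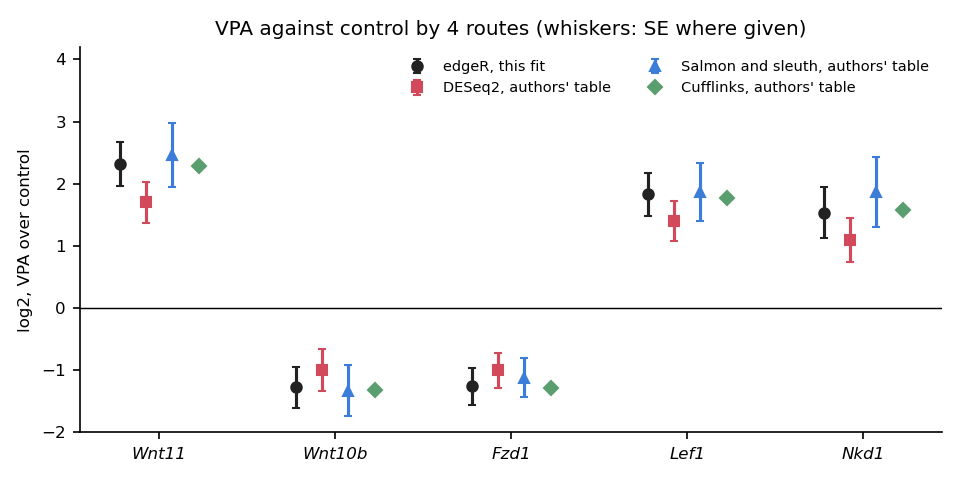
Log2 ratio of VPA over control (y axis) for the 5 genes from the edgeR fit and from the authors' DESeq2, Salmon and sleuth, and Cufflinks tables; whiskers are standard errors, which the Cufflinks table lacks. Directions are the same by each route, and the DESeq2 table holds the smallest value for each gene, such as 1.7 for Wnt11, against 2.32 in the edgeR fit and also 2.32 when DESeq2 was run on the counts without shrinkage.

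Levels of different genes can be compared only per transcript length, which the authors' deposited Cufflinks table allows with 1 FPKM value per group (fragments scaled to transcript length and library size) and no spread. In control, that Cufflinks table gives Fzd1 the highest level at 2.83 FPKM, followed by Wnt10b at 1.46, Lef1 at 0.463, Wnt11 at 0.388 and Nkd1 at 0.299. With VPA, the authors' Cufflinks values put Wnt11 first at 1.90 FPKM, followed by Lef1 at 1.57, Fzd1 at 1.16, Nkd1 at 0.894 and Wnt10b at 0.586. Fzd1 and Wnt10b thus headed the order in control, and with VPA Wnt11 and Lef1 did. Whether neighbours in these orders differ beyond their spread cannot be said from 1 value per group. The authors' deposited table places Wnt11 on chromosome 1 (163793991 to 163813756), Lef1 on 2 (236233238 to 236345056), Fzd1 on 4 (26470686 to 26475262), Wnt10b on 7 (140447375 to 140454915) and Nkd1 on 19 (19434825 to 19509087). The build of these positions is not given in the sources used here.

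Other genes of the pathway were taken from lists of 191 genes in all, of which 24 have a name that the tables pair with an identifier and 23 were tested; Wls is named without one. Names come from tables the authors limited by p, mostly of VPA against control, so these counts and medians show nothing about whole lists, and 76.7% of all tested genes with a name were called for VPA. Of the 23, 13 were called higher and 5 lower with VPA, and 0 with lithium. Of the 1299 tested genes with a name, 649 were called higher with VPA and 347 lower. The counts of each list below are a description as well, with 5.71% of all tested genes called higher and 2.99% lower. The median size of the log2 difference from control, whatever its sign, was 1.58 with VPA and 0.27 with lithium, against 0.27 and 0.10 over all genes tested. Over the 1299 tested genes with a name, which were chosen in the same way, these medians were 1.22 and 0.18. Sizes taken without sign grow where reads are few, and levels were not matched between these sets. The medians therefore do not show a larger lithium difference in Wnt genes. Of the 18 called genes, 8 were called whichever library was left out: Wnt3, Wnt6, Wnt11, Fzd4, Igfbp4, Lef1, Nrcam and Celsr3. Without control 1, VPA 1, VPA 2 or VPA 3 the calls numbered 10, 11, 10 and 9.

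Among ligands, 4 of 24 were tested, 3 called higher and 1, Wnt10b, lower. Wnt6, a ligand of epithelia and neural crest induction, was at 2.81, 1.85 and 3.38 CPM in controls 1, 2 and 3, at 1.98, 1.58 and 2.77 CPM with lithium, and at 15.8, 17.8 and 23.2 CPM with VPA. Its log2 difference of VPA from control was 2.81 ± 0.29 (SE). In the authors' deposited Cufflinks table Wnt6 had the highest level of the 3 ligands listed there with VPA, at 6.81 FPKM against 0.835 in control. Wnt3, a canonical ligand, had 5 reads in all controls together, 7 with lithium and 52 with VPA, a log2 difference of 3.14 ± 0.54 that rests on few control reads and was 3.78 without control 1. Of the ligands with a name, Wnt10b was the one that was lower with VPA.

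Among receptors, 3 of 24 were tested, 2 called higher and 1, Fzd1, lower. Fzd4, the receptor for Norrin in retinal vessels, had a mean of 3.18 ± 0.793 CPM in control, 2.94 ± 0.309 CPM with lithium and 9.70 ± 3.42 CPM with VPA (SD, n = 3), a log2 difference of VPA from control of 1.61 ± 0.30 (SE). Fzd3, a receptor needed for axon guidance, had 4.66 ± 0.447 CPM in control and 8.96 ± 0.933 CPM with VPA (SD, n = 3), a log2 difference of 0.94 ± 0.21. Fzd3 lost its call without control 2 or 3 or VPA 1 or 2 (0.86 to 0.95; adjusted p of 0.0504 to 0.0725 in edgeR's test). The receptors with a name thus differed in direction, with Fzd1 lower and Fzd3 and Fzd4 higher.

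Secreted inhibitors were represented by 2 of 17 genes, both called lower. Igfbp4, a growth factor binding protein that can also block Frizzled and LRP receptors, had 94.3 ± 7.37 CPM in control, 84.4 ± 7.53 CPM with lithium and 37.4 ± 3.96 CPM with VPA (SD, n = 3). Sfrp4, a soluble decoy related to Frizzled, stood at 10.6, 6.51 and 4.18 CPM in controls 1, 2 and 3 and at 2.73, 1.4995 and 0.402 CPM in VPA 1, 2 and 3. This gave Sfrp4 a log2 difference of -2.19 ± 0.59 (SE). It lost its call without control 1 or 2, lithium 2, or VPA 2 or 3 (-2.24 to -1.72; adjusted p of 0.0502 to 0.134 in edgeR's test), and was -2.96 without VPA 1. It also lost its call with no filter on low counts (adjusted p = 0.0756, edgeR). Inside the cell, 1 of 26 cytoplasmic genes was tested. Dact3, a Dishevelled-binding antagonist, differed by 0.94 ± 0.22 and lost its call without control 1 or 2 or VPA 2 or 3 (0.76 to 0.93; adjusted p of 0.0683 to 0.0834, edgeR).

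Among the 8 genes of Wnt secretion and surface handling, the glypican Gpc4, a cell-surface proteoglycan, had a log2 difference of 0.92 ± 0.27 (SE) and was not called (adjusted p = 0.0569, edgeR), but was called with the replicate block (adjusted p = 0.00803 over all 9 libraries, edgeR), with no filter (adjusted p = 0.0377, edgeR) and by DESeq2 (adjusted p = 0.023). Of 20 nuclear genes, Lef1 alone was tested. Of 21 planar polarity genes, which orient cells in a sheet and guide axons, 3 were tested and all were called higher with VPA. All 3 have a name through the authors' tables of VPA against control, so this count says nothing about the others. The cadherin Celsr3 differed by 1.89 ± 0.26, Celsr1 by 1.92 ± 0.51 and the cadherin Dchs1 by 2.55 ± 0.54. Celsr1 lost its call without control 1 or 2, lithium 1, or VPA 1 or 3 (1.57 to 1.98; adjusted p of 0.0541 to 0.137, edgeR). Dchs1 lost its call without VPA 3 (2.12; adjusted p = 0.0545, edgeR).

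**Figure D5:**
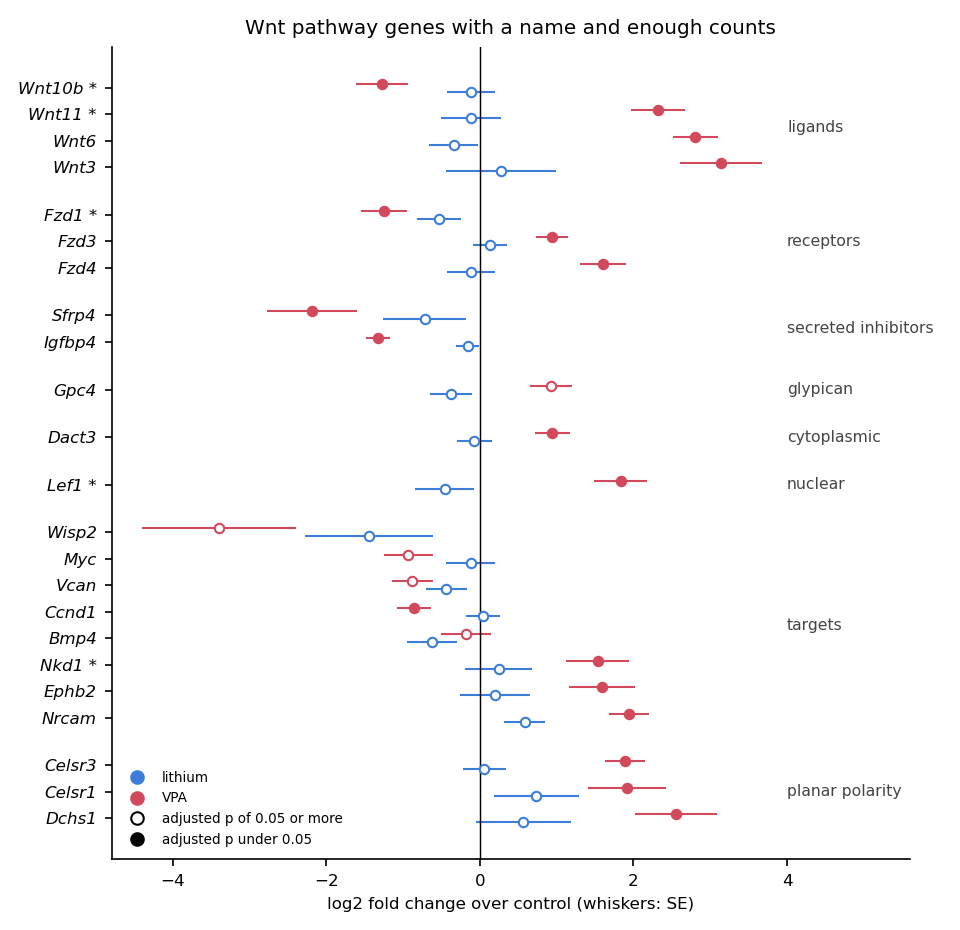
Log2 fold change over control (x axis) with lithium and with VPA for the 23 Wnt list genes with a name and enough counts, ordered by role; whiskers are standard errors, filled points have an adjusted p under 0.05 and asterisks mark the 5 genes followed here. No lithium point is filled, and with VPA 13 points are filled above 0 and 5 below it; Lef1 is drawn once, under nuclear genes.

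Of 56 known target genes of canonical Wnt signalling 9 were tested, and these did not share a direction with VPA. In all, 4 were called higher and 1 lower. Most have a name because the authors' p in this contrast listed them, so they do not stand for the rest. The neural adhesion molecule Nrcam had 2.92 ± 0.487 CPM in control, 4.38 ± 0.162 CPM with lithium and 11.2 ± 3.099 CPM with VPA (SD, n = 3). The cell cycle gene Ccnd1, coding for cyclin D1, stood at 1385, 1104 and 1782 CPM in controls 1, 2 and 3, and at 888, 771 and 695 CPM in VPA 1, 2 and 3. Ccnd1 thus had a log2 difference of -0.86 ± 0.22 (SE), against 1.83 for Lef1 and 1.54 for Nkd1. Ccnd1 lost its call without control 1 or 3, lithium 2, or VPA 1, 2 or 3 (-0.96 to -0.66; adjusted p of 0.0535 to 0.119 in edgeR's test), and with the 2 groups alone (adjusted p = 0.0635, edgeR).

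The remaining targets are named after their values were seen. The ephrin receptor Ephb2 differed by 1.58 ± 0.43 and lost its call without control 1 or 2, lithium 2, or VPA 1, 2 or 3 (1.20 to 1.67; adjusted p of 0.0584 to 0.120, edgeR). The growth regulator Myc had a log2 difference of -0.93 ± 0.32 (SE), the proteoglycan Vcan of -0.88 ± 0.27 and Wisp2 of -3.40 ± 1.00; none was called (adjusted p = 0.103, 0.0662 and 0.0587, edgeR). With the replicate block over all 9 libraries these 3 were called (adjusted p = 0.0278, 0.039 and 0.00303, edgeR), as they were by DESeq2 (adjusted p = 0.0401, 0.0187 and 0.0446). Without a filter Vcan was also called (adjusted p = 0.0194, edgeR). With 1 library left out, Vcan was called without control 2 or 3 and Wisp2 without control 3, lithium 1 or lithium 3. Without VPA 3 the value of Myc was -0.60. Vcan was at 246, 120 and 110 CPM in controls 1, 2 and 3, with control 1 high as for Fzd1, and its difference was -0.42 without control 1. The growth factor Bmp4 had a log2 difference of -0.18 ± 0.32 and was not called. Its value was -0.032 without control 1 and -0.49, -0.086 and -0.022 without VPA 1, 2 and 3.

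Over the 9 libraries, the named genes most like each member were found by the Pearson correlation r of log2(CPM + 1) among 1173 genes with a symbol and a mean of at least 1 CPM. The libraries share their groups, so r mostly follows the VPA difference and is given as a description. Closest to Wnt11 were Sqrdl (r = 0.988), Adora1 and Stk32c (0.983 each), and farthest was Kdelc2 (-0.984). Closest to Wnt10b were Gsdmd (0.978), Arhgef19 (0.973) and Irf7 (0.971), and farthest was Pkia (-0.99). Closest to Fzd1 were the matrix proteins Prelp (0.967), Vcan (0.964) and Olfml2b (0.96), and farthest was Cyp46a1 (-0.931). Closest to Lef1 were Asrgl1 (0.996), Rab6b (0.991) and Cgn (0.99), and farthest was Irak1 (-0.986). Closest to Nkd1 were Podxl (0.983), Atrnl1 (0.982) and the receptor Notch3 (0.981), and farthest was Clec2g (-0.981). Among the members, r was 0.909 for Wnt11 and Lef1, 0.901 for Lef1 and Nkd1, 0.829 for Wnt11 and Nkd1, and 0.616 for Wnt10b and Fzd1. The 6 pairs of a gene higher with VPA and one lower had r from -0.833 (Fzd1 and Nkd1) to -0.689 (Fzd1 and Lef1).

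Markers of other cell types could be read only where the authors' tables, mostly of VPA against control and limited by p, name them. Their differences with VPA are therefore a description. Of 12 fibroblast and mesenchymal markers 8 could be read, with a summed level of 6500 to 9667 CPM in control, 4261 to 6117 CPM with lithium and 1684 to 2383 CPM with VPA. Within that list the collagen-binding Lum had 0 reads with VPA and 73 in control. Against the direction of the sum, which Fn1 and S100a4 dominate, Pdgfra had 169 reads in control and 288 with VPA, and Cnn1 had 21 and 115. Of 9 neural crest and Schwann cell markers 4 could be read, Sox10, Erbb3, Ngfr and S100b, with a summed level of 11.07 to 16.89 CPM in control, 14.41 to 15.88 CPM with lithium and 55.86 to 65.14 CPM with VPA. S100b had 127 reads in control and 57 with VPA, against the direction of the sum. Of 5 leucocyte markers only Cd68 could be read, at 8.529 to 14.22 CPM in control, 12.02 to 20.88 CPM with lithium and 23.33 to 41.28 CPM with VPA. The part of these markers in the Wnt gene differences was not tested.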

How the data were processed

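The data are poly(A) RNA-seq of RN46A cells, unstranded per the labels' protocols, so reads from genes that overlap on either strand are not separated. Groups and replicate numbers come from the titles. The members and lists were chosen with earlier results of these data known.

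The authors deposited raw counts per Ensembl gene (9580591 to 13030300 per library, 0 lines that name no gene), from HTSeq by the name of the table. The submitters' processing notes list the tools STAR 2.5.1, Salmon 0.6.1, Cufflinks 2.2.1, DESeq2 and sleuth and give them no role; the build is not given in the sources used here. The authors deposited log2 fold changes, p-values and mean normalized counts (a signal) from DESeq2, per the file headers. The authors' Cufflinks table gives FPKM per group, and its log2 ratios were turned to VPA over control. The authors' sleuth effects are on a natural log scale: over 588 transcripts, their ratio to the log2 values of Cufflinks had a median of 0.697. They were divided by the natural log of 2. A table titled for kallisto repeats the DESeq2 table and was not used, nor were 6 per-sample columns of the lithium table, which match no label in full.

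For the tests, edgeR 4.0.16 (R 4.3.3) was given the raw counts, scaled by TMM and filtered by filterByExpr with 10 as the minimum count. Group means were fitted to all 9 libraries by the robust quasi-likelihood method, each contrast was tested two-sided, and p-values were adjusted by Benjamini-Hochberg over 12719 genes. The biological coefficient of variation was 0.22. Standard errors were derived from each log2 fold change and its F statistic. The fit was tested on simulated counts with known changes. Of changes with a fold of 2 it recovered 55% for lithium and 57% for VPA, each against control. At a fold of 4 it recovered 99% and 97%. The changed genes were drawn from genes of all levels that passed the filter, with the same spread given to every gene. These shares therefore need not hold for genes with as few reads as Wnt11, Lef1 and Nkd1. Symbols were read from the authors' tables, where 1384 identifiers have one. All 5 members are described. Of each Wnt list, up to 4 genes with the smallest p for VPA against control are named, and others are said to have been named with their values in view. The genes most like a member are the 3 with the highest correlation and the 1 with the lowest. Promoters are from RefSeq, matched by symbol.

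As a check of pairing, deviations from the group means were correlated between control and VPA libraries of the same number, which gave 0.61, 0.53 and 0.526 over 10288 genes (mean of 5 CPM or more), so the numbers were used as pairs in a fit with the replicate as a block; no label states this pairing. For control and lithium the values were -0.424, -0.0801 and 0.807, and for lithium and VPA they were -0.203, 0.0589 and 0.536. The block was also used in fits with lithium, where replicates 1 and 2 show no clear pairing. Alternatives were DESeq2 1.42.0, median-ratio and upper-quartile scaling, no filter, the 2 groups alone, the replicate block in 2 forms, and each library left out.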

Additional observations from a re-analysis of the deposited data

How the results depend on the processing

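All 5 members kept the direction of their VPA difference from control under all 16 alternatives, as did the 23 Wnt list genes wherever they were tested. These libraries chose the members, so directions and calls kept or lost in this contrast are a description. With the 2 groups alone, Wnt10b (-1.28, adjusted p = 0.0554, edgeR) and Nkd1 (1.53, adjusted p = 0.0566, edgeR) lost their calls. That fit has fewer samples, as has the fit of VPA and lithium alone, where calls rose from 1009 to 1197. The cause was not tested. The replicate block raised the calls for VPA against control from 1106 to 1741, and to 2408 with these groups alone. It raised those for VPA against lithium from 1009 to 1609 over all 9 libraries, and to 1318 with these 2 groups alone. Lithium replicates 1 and 2 showed no clear pairing with those of VPA. The block changed no call of a member for either drug against control. Against lithium, Wnt10b was called with DESeq2 (-1.16; adjusted p = 0.0445) and the block over 9 libraries (-1.16; adjusted p = 0.0304, edgeR), and Nkd1 with the 2 groups alone (1.29) or the block (1.31 over 9 libraries, 1.29 over 2 groups) and without control 3 (1.30; adjusted p = 0.0322, edgeR); the cause was not tested.

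With each library left out in turn, calls ran from 638 to 1026 for VPA against control and from 544 to 1197 for VPA against lithium, and those of the Wnt lists from 9 to 19 and from 8 to 15. The calls for VPA against control numbered 694, 638, 698 and 669 without control 1, VPA 1, VPA 2 and VPA 3, and those for VPA against lithium 553, 544, 638, 659 and 639 without lithium 1, lithium 2, VPA 1, VPA 2 and VPA 3. The VPA difference from control ran from -1.44 to -1.02 for Wnt10b, -1.45 to -0.82 for Fzd1, 1.29 to 2.16 for Nkd1, 2.03 to 2.51 for Wnt11 and 1.59 to 2.16 for Lef1. That of VPA from lithium ran from 1.12 to 1.46 for Nkd1. Lithium values ran from -0.40 to 0.067 for Wnt11, -0.29 to 0.034 for Wnt10b and -0.017 to 0.85 for Nkd1, so their signs turned (Wnt11 to 0.067 without control 2 and 0.020 without lithium 2, Wnt10b to 0.034 without control 3 and 0.032 without lithium 2, Nkd1 to -0.017 without control 2; the cause was not tested), and from -0.74 to -0.09 for Fzd1 and -0.71 to -0.14 for Lef1; 0 were called. With 5 to 22 reads per control library for Wnt11, Lef1 and Nkd1, depth limits how small a lithium difference could be seen.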

Other observations

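Wls and Fgf9 lie outside the comparisons above, and Bmp4 also has a lithium value from the authors. Wls, which escorts Wnt ligands to the cell surface, is listed only in the authors' deposited Cufflinks table, at 112 FPKM in control and 70.4 FPKM with VPA, a log2 ratio of -0.67. Fgf9, a growth factor of the target list, had too few counts to be tested. The authors' deposited DESeq2 table gives it a log2 value of 1.3 ± 0.38 (SE) for VPA over control, with an adjusted p of 0.011. Their Cufflinks table gives it 0.116 FPKM in control and 0.963 FPKM with VPA, a log2 ratio of 3.05. Bmp4 is the only gene of the Wnt lists in the authors' deposited lithium table. Its log2 value there was -0.54, with an unadjusted p of 0.0278 and an adjusted p of 0.9999 by DESeq2. In the edgeR fit its lithium difference from control was -0.63 ± 0.33 (SE), and it was not called.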
